A study of Mus musculus with 12 samples.

Results

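Hepatokines are proteins that the liver secretes into the blood and that act on metabolism elsewhere in the body. The transcripts of 9 hepatokine genes, of 50559 genes listed in the deposited tables, were followed here. They were taken by gene symbol, from a list that names no threshold on their values: Fgf21, Gdf15, Inhbe, Angptl4, Angptl6, Angptl8, Ahsg, Fetub and Selenop. Liver RNA was sequenced from C57BL/6N mice in 4 groups of 3 libraries. NCD denotes animals kept on normal chow and HFD those kept on a high-fat diet with 60% of its energy from fat; in the remaining groups, HFD+C1 and HFD+C2, HFD-fed animals were injected intraperitoneally with a compound, C1 or C2, at 5 mg/kg per day. Diet and injections each lasted 12 weeks. The series title describes C1 and C2 as inhibitors of CYP4A, a family of fatty acid hydroxylases; both are code names, and neither the structures nor a vehicle injection for NCD and HFD are given in the sources used here. Sex and age are not given either. The labels call the 3 libraries of a group biological replicates.

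FGF21 is a hormone that the liver releases in fasting and under nutrient stress and that acts through FGF receptors with the co-receptor beta-Klotho. GDF15 is a stress hormone that lowers appetite through the hindbrain receptor GFRAL. Inhbe encodes the subunit of activin E, which acts on adipose tissue. The angiopoietin-like proteins ANGPTL4 and ANGPTL8 restrain lipoprotein lipase, the enzyme that takes triglyceride out of circulating lipoproteins; ANGPTL6 has been linked to energy expenditure. Fetuin-A (Ahsg) and fetuin-B (Fetub) are abundant plasma proteins of the cystatin superfamily that have been tied to insulin resistance, and selenoprotein P (Selenop) carries selenium from the liver to other organs. In bulk liver, fewer cells of a type and less RNA per cell cannot be told apart.

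On the RefSeq annotation of GRCm38.p6, the build the files use under the name mm10, all members are protein-coding genes. Fgf21 lies at chr7:45613890-45615490 on the minus strand, Gdf15 at chr8:70629393-70632470 on the minus strand and Inhbe at chr10:127349402-127351848 on the minus strand. Angptl4 lies at chr17:33774900-33781575 and Angptl6 at chr9:20873808-20879822, both on the minus strand, and Angptl8 at chr9:21835510-21837347 on the plus strand, inside Dock6, which runs the other way. Ahsg (chr16:22892015-22899451) and Fetub (chr16:22918382-22939768) are neighbours on the plus strand, 18930 bases apart, and Hrg and Kng1, which encode the cystatin-superfamily proteins histidine-rich glycoprotein and kininogen, follow in the same cluster. Selenop lies at chr15:3270767-3280510 on the plus strand and shares 439 exon bases with Ccdc152 on the opposite strand. Whether the counting used strand is not given, so reads in shared bases of Selenop and Ccdc152, of Angptl6 and A230050P20Rik (265 bases) and of Ahsg and Gm30505 (62 bases) cannot be assigned to a strand with certainty.

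RefSeq promoter windows of 300 bases (250 before the start and 50 after it) were available for 8 of the 9 members. Fgf21, Inhbe and Angptl8 hold the letters TGATGNAAN, a form of the C/EBP-ATF element bound by transcription factors of the amino acid and stress responses. Their HFD levels lay above every NCD library. So did those of Selenop and Ahsg, whose windows hold no match, and of Angptl4, the member without a window. Each stretch of 99 bases is given 5′ to 3′ on the gene's own strand, with the match in capitals; in Fgf21 and Inhbe the match reads on the other strand.
Fgf21: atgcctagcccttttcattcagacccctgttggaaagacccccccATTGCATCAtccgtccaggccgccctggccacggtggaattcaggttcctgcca
Inhbe: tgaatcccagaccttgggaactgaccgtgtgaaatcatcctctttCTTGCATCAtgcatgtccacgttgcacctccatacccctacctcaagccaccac
Angptl8: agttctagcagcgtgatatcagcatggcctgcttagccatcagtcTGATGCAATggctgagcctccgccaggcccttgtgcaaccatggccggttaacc
The match lies at -140 to -132 from the start in Fgf21 (stretch at chr7:45615577-45615675), at -182 to -174 in Inhbe (chr10:127351977-127352075) and at -130 to -122 in Angptl8 (chr9:21835335-21835433). On either strand the same letters occur in 3.95% of 32851 promoter windows of this length. The motif was chosen after these promoters had been viewed, so its presence is a description and no test was made. Of the other letters searched on both strands, the E-box CACGTG (7.15% of windows) was found in Fgf21 and Gdf15, TATAAA (13.6%) in Fgf21, Fetub and Selenop, and DR1, the direct repeat bound by nuclear receptors (0.381%), in Gdf15; TCACNCCAC, a sterol element (1.24%), was found in none of the members' windows.

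The smallest library, NCD replicate 2, held 4281210 reads in genes and the deepest, HFD replicate 1, held 32124248. NCD replicate 1 and HFD+C2 replicate 1 stood apart: 58.2% and 47.1% of their reads were not assigned to a gene, against 27.3% to 40.7% in the other libraries. Hepatocyte identity was clear in every library: none of the 8 hepatocyte markers examined (Alb, Apoa1, Ttr, Serpina1b, Tat, Tdo2, Hpd and Cps1) was at 0, and their summed level was 95546 to 113395 CPM (counts relative to the reads in genes, scaled by TMM) in HFD. In NCD replicate 1 that sum was 35194 CPM, below 81191 and 83719 CPM in the other NCD libraries. All 9 members had enough reads to be tested in every comparison.

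Per kilobase of the longest RefSeq-linked transcript, averaged over the 12 libraries, the order of the levels was Selenop (1450.5 CPM per kb), Ahsg (1437 CPM per kb), Fetub (200.5 CPM per kb), Angptl8 (113 CPM per kb), Inhbe (13.5 CPM per kb), Angptl4 (12.1 CPM per kb), Angptl6 (4.99 CPM per kb), Gdf15 (4.60 CPM per kb) and Fgf21 (4.32 CPM per kb). The 2 plasma proteins at the top, the 2 genes Inhbe and Angptl4 in the middle on this length, and the 3 genes at the bottom each lie closer together than their spread over libraries. The transcript used for Inhbe is long (5319 bases); its RefSeq gene span is 2447 bases, introns included, on which its level would be 29.3 CPM per kb and no longer near that of Angptl4. All levels below are CPM scaled by TMM (trimmed mean of M-values, which sets libraries on a common scale) over the 12 libraries, not per length, and are compared within a gene.

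**Figure D1:**
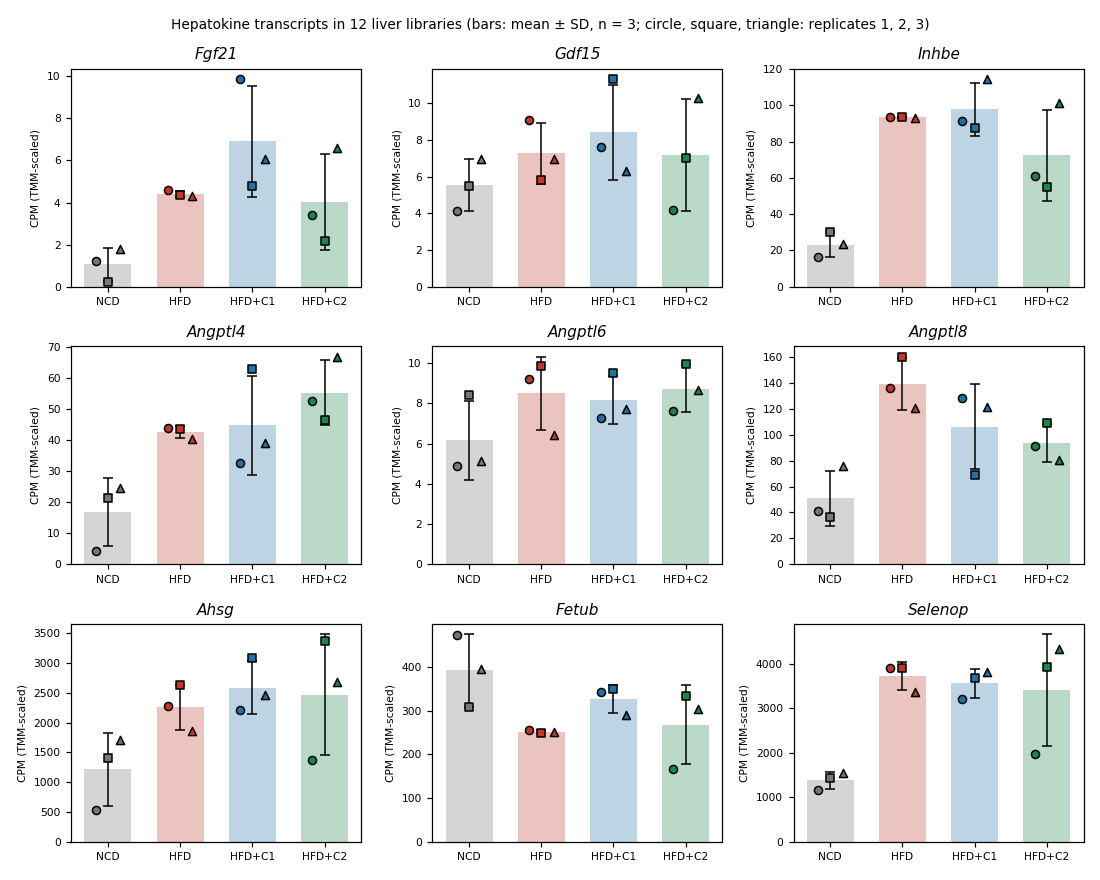
Level of each hepatokine transcript (y axis, CPM scaled by TMM over 12 libraries, starting at 0) in the 4 groups; bars are the mean, lines the SD over 3 libraries, and the symbols replicates 1, 2 and 3. The HFD libraries of Inhbe lie between 93.2 and 93.5 CPM, all above the NCD libraries, while for Gdf15 and Angptl6 the HFD and NCD libraries overlap.

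The first comparison asked which hepatokine transcripts the diet changed. Inhbe, Selenop and Angptl8 rose in HFD by edgeR's quasi-likelihood test, Inhbe the most at 4.12-fold. No member fell past the threshold in this edgeR fit, and the other 6 members were not called by it. These 3 of 9 members stand beside 836 of 13864 genes called in either direction (6.03%) and 359 called higher (2.59%; 3.44% were called lower), each at a Benjamini-Hochberg adjusted p under 0.05 over all genes tested. The median log2 change of the members was 1.37, against -0.02 over all genes tested. Groups did not overlap for 6 members higher in HFD and 1 lower, beside 18.2% and 18.9% of all genes tested. An unadjusted p under 0.05 was reached by 7 members, beside 28.9% of all genes tested. DESeq2 called 6 members, beside 3198 of 35374 genes. It added Fgf21 and Angptl4 as higher and Fetub as lower (DESeq2 adjusted p 0.012, 0.041 and 0.0249).

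Inhbe was at 16.2, 29.9 and 23.4 CPM in the NCD libraries (replicates 1, 2 and 3) and at 93.5, 93.5 and 93.2 CPM in the HFD libraries. On this scale the HFD libraries were nearly equal and the groups were far apart. With total-count scaling the HFD libraries were at 87.7, 94.0 and 91.0 CPM, so that closeness depends on the scaling. The log2 change of Inhbe was 2.04 (SE 0.24, edgeR adjusted p 0.00665). Inhbc, the activin C gene 4473 bases away on the same strand, was at 45.2 ± 15.1 CPM in NCD and 69.3 ± 6.71 CPM in HFD (SD, n = 3) and was not called (log2 change 0.64, edgeR adjusted p 0.152). Of the 15 tested genes of the activin and inhibin system, 1 was called: Inhbb, the activin B subunit, rose by a log2 change of 2.67 (edgeR adjusted p 0.0413), a size that is not exact because its NCD level of 0.182 ± 0.0250 CPM lay under the floor of 3 counts in replicates 1 and 2. Anxa4, an annexin gene, was among the 2 genes with the pattern most like Inhbe over the 12 libraries, at a mean absolute difference of standardised log2 CPM of 0.198 SD units, where the median over 10133 genes was 0.996.

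Selenop was at 1177, 1429 and 1542 CPM in NCD and at 3914, 3909.5 and 3365 CPM in HFD. Every HFD library was above every NCD library, with a log2 change of 1.45 (SE 0.21, edgeR adjusted p 0.0133), a fold of 2.73. Ccdc152, with which it shares exon bases, was at 2.39 ± 1.0 CPM in NCD and 3.51 ± 0.653 CPM in HFD and was not called (log2 change 0.63, edgeR adjusted p 0.299). Among the 24 tested genes of selenium handling, 2 rose and 1 fell: Gpx1, the glutathione peroxidase of the cytosol, rose by 1.40 on the log2 scale, Eefsec, the selenocysteine elongation factor, rose by 0.85, and Selenoi fell by 0.78 (edgeR adjusted p 0.0403, 0.0477 and 0.0386). The median of that list was 0.00. Lrp8, a receptor for selenoprotein P outside the liver, was not tested for want of reads. Phrf1 (0.131 SD units) and 1810055G02Rik (0.171) had the pattern most like Selenop.

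Angptl8 was at 41.2, 36.7 and 75.6 CPM in NCD and at 137, 161 and 121 CPM in HFD, so the groups did not overlap. Its log2 change was 1.46 (SE 0.29, edgeR adjusted p 0.0343), a fold of 2.74. Dock6, the gene it lies in, changed the other way by 0.23 on the log2 scale without a call (edgeR adjusted p 0.373). Qrich1 (0.235 SD units) and Asb13 (0.310) were nearest to it in pattern, less near than the genes found for Inhbe and Selenop.

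Angptl4 was at 4.30, 21.5 and 24.6 CPM in NCD and at 44.1, 43.6 and 40.4 CPM in HFD. All HFD libraries lay above the NCD libraries, but the NCD libraries were spread widely and the gene was not called (log2 change 1.37, SE 0.50, edgeR adjusted p 0.122). Without NCD replicate 1 its log2 change was 0.88, with an edgeR adjusted p of 0.00243. Angptl6 was at 4.90 to 8.44 CPM in NCD and 6.43 to 9.88 CPM in HFD, with overlapping groups (log2 change 0.53, edgeR adjusted p 0.257). Of the other genes of the lipase axis, 2 of 15 tested rose and 0 fell: Lmf1, the chaperone of lipases, by 1.08 and Gpihbp1, the endothelial anchor of lipoprotein lipase, by 0.91 on the log2 scale (edgeR adjusted p 0.0385 and 0.0477). The list's median was 0.68. Lpl was at 12.4 ± 1.59 CPM in NCD and 7.89 ± 1.05 CPM in HFD, without a call (log2 change -0.64, edgeR adjusted p 0.0859).

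Fgf21 was at 1.20, 0.211 and 1.77 CPM in NCD and at 4.58, 4.35 and 4.31 CPM in HFD. The NCD values rest on 14, 1 and 43 reads. Every HFD library was above every NCD library, and the gene sat at the threshold without passing it (log2 change 1.87, SE 0.46, edgeR adjusted p 0.0501). With library sizes taken from all genes in place of the genes tested, its edgeR adjusted p was 0.0498 and it was called; the setting reported here, edgeR's default, was settled on after both values had been seen. Gdf15 was at 4.13 to 6.99 CPM in NCD and 5.80 to 9.10 CPM in HFD, with overlapping groups (log2 change 0.41, SE 0.28, edgeR adjusted p 0.367; 0.18 without NCD replicate 1 and 0.23 without HFD replicate 1). Of 10 tested receptor and signalling genes for these 2 hormones, 0 were called by edgeR, with 2 at an unadjusted p under 0.05; DESeq2 called 2. Klb, which encodes beta-Klotho, was at 10.3 ± 2.44 CPM in NCD and 18.4 ± 2.28 CPM in HFD (log2 change 0.86, edgeR adjusted p 0.0601), and Fgfr4 at 13.4 ± 8.53 and 22.2 ± 3.07 CPM (log2 change 0.77, edgeR adjusted p 0.321). Gfral was not tested for want of reads.

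Neither fetuin was called in the main edgeR fit. DESeq2 called Fetub (DESeq2 adjusted p 0.0249), and edgeR without a filter on mean counts called Ahsg (edgeR adjusted p 0.0152). Ahsg was at 533, 1411 and 1709 CPM in NCD and at 2281, 2625 and 1866 CPM in HFD, higher in every HFD library (log2 change 0.91, SE 0.39, edgeR adjusted p 0.167; 0.54 without NCD replicate 1). Fetub, its neighbour, was at 474, 308 and 394 CPM in NCD and at 255, 248.9 and 251 CPM in HFD, lower in every HFD library (log2 change -0.62, SE 0.20, edgeR adjusted p 0.0898). Whether the 2 changes differ from each other was not tested. Further along the cluster, Hrg rose from 367 ± 136 to 838 ± 47.5 CPM (log2 change 1.21, edgeR adjusted p 0.0460), while Kng1 was at 2013 ± 812 and 2192 ± 57.8 CPM (log2 change 0.14, edgeR adjusted p 0.792). Of the 9 tested genes of this list, which also holds insulin receptor genes, 1 rose and 1 fell: Irs2, the insulin receptor substrate of the fasted liver, fell by 2.36 on the log2 scale (edgeR adjusted p 0.00893).

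**Figure D2:**
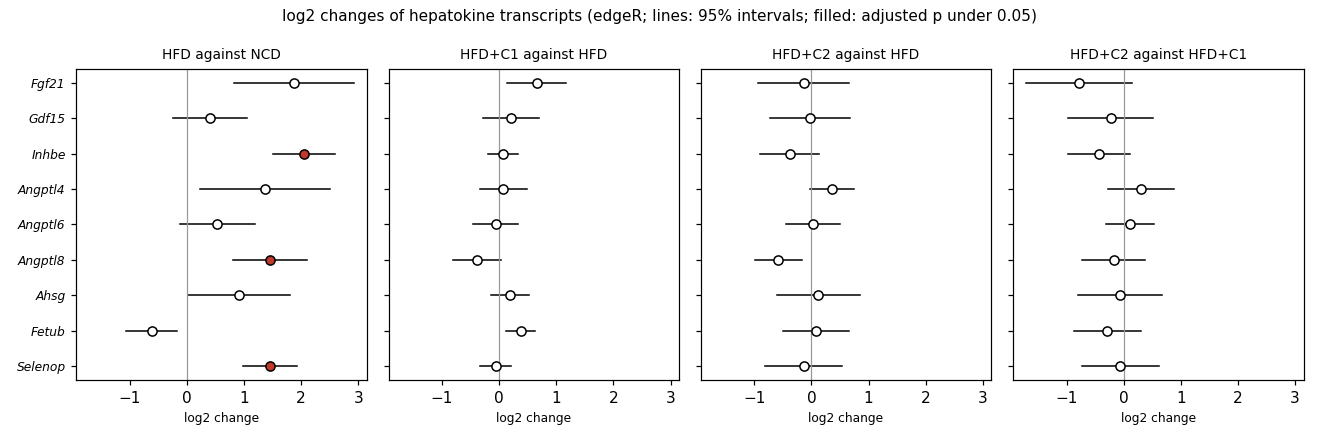
Log2 change of each hepatokine transcript (x axis) in the 4 comparisons; points are edgeR estimates from 3 against 3 libraries, lines their 95% intervals, and filled points have an adjusted p under 0.05. Inhbe, Angptl8 and Selenop are filled for the diet, at 2.04, 1.46 and 1.45, and no point is filled in the compound comparisons.

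Leaving out single HFD libraries removed most of the diet calls. Without HFD replicate 1, and without HFD replicate 3, 0 of the 9 members were called by edgeR, and the count over all genes fell to 23 and 25; with an edgeR adjusted p of 0.0561 and 0.0546, Inhbe was nearest. No sign changed: over the 6 fits that each left out 1 library, the log2 change was 1.84 to 2.28 for Inhbe, 1.33 to 1.54 for Selenop and 1.28 to 1.86 for Angptl8. Without HFD replicate 2 only Inhbe was called, where 131 of 13937 genes were. Without NCD replicate 1 the number was 5, with Fgf21 and Angptl4 added, where 1838 of 13412 genes were called.

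Marker levels of several cell types moved with the diet. The summed hepatocyte markers were higher in all HFD libraries than in the NCD libraries, although 0 of the 8 were called. Per 1000 CPM of those markers, a scale chosen after the data were seen, Inhbe was at 0.369 ± 0.0900 in NCD and 0.899 ± 0.0755 in HFD (SD, n = 3). On the same scale Angptl8 was at 0.842 ± 0.363 and 1.33 ± 0.0786 and Selenop at 23.2 ± 8.92 and 35.7 ± 1.59. Fgf21 and Angptl4 too stayed higher without overlap and Fetub lower, while Ahsg joined Gdf15 and Angptl6 among the members whose groups overlap. In NCD replicate 1, the library with the lowest marker sum, Selenop was at 33.4 and Angptl8 at 1.17. These values lay just below the lowest HFD libraries, at 34.5 and 1.26. How many of all genes lie apart on this scale was not counted. The summed adipocyte markers (Adipoq, Lep, Plin1, Cfd and Retn) were at 0.844 to 1.29 CPM in NCD and 19.998 to 24.5 CPM in HFD. In each HFD library 3 of the 5 were at 0 and Cfd made up nearly all of the sum. Lep was at 0 throughout HFD. Only 1 of the 5 had enough reads to be tested, and it was called higher by edgeR (log2 change 5.40). Skeletal muscle markers reached 97.3 CPM in 1 NCD library and at most 0.398 CPM in HFD. Stellate and fibroblast markers summed to 97.2 to 125 CPM in NCD and 137 to 151 CPM in HFD, with 2 of 8 called higher. Endothelial markers, with 1 of 8 called higher, summed to 96.3 to 118 CPM and 99.8 to 129 CPM and overlapped. Cholangiocyte markers (23.6 to 32.5 CPM in NCD, 33.0 to 39.8 CPM in HFD) and B and plasma cell markers (3.80 to 6.53 CPM in NCD, 1.86 to 3.62 CPM in HFD) did not overlap either, with none called. The part of these cells in the hepatokine results was not tested.

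**Figure D3:**
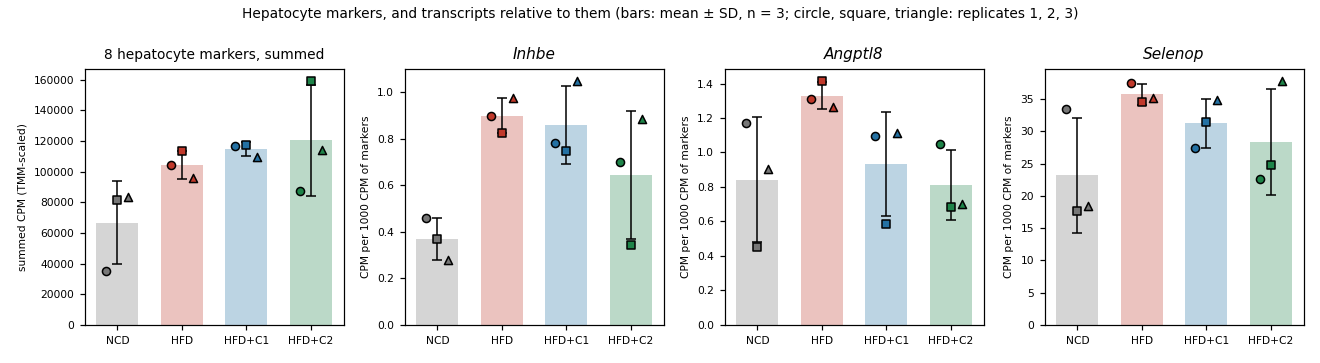
Summed level of 8 hepatocyte markers (first plot, CPM scaled by TMM) and the levels of Inhbe, Angptl8 and Selenop per 1000 CPM of those markers, by group; bars are means, lines SDs over 3 libraries, and the symbols replicates 1, 2 and 3. NCD replicate 1 lies lowest in markers at 35194 CPM, and Inhbe remains apart between NCD (0.279 to 0.459) and HFD (0.825 to 0.976).

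The wider lists of genes around the hepatokines, written with earlier results of these data known, held 210 distinct genes, of which 194 were tested for the diet; 19 rose and 9 fell. Of the 25 tested targets of PPAR-alpha, the fatty acid sensor that drives Fgf21 and Angptl4 in fasting, 6 rose and 1 fell. Cidec, a lipid droplet protein, rose by 4.50 on the log2 scale, Cd36, the fatty acid transporter, by 2.06 and Vnn1 by 1.96, while Pdk4, the kinase that blocks pyruvate oxidation, fell by 1.86 (edgeR adjusted p 0.00431, 0.00431, 0.0302 and 0.00994). The list's median was 0.28. Of 19 tested genes of the integrated stress response, which acts through C/EBP-ATF elements, 3 rose and 1 fell. Nupr1 rose by 2.51, Chac1 by 2.13 and Ddit3 (CHOP) by 0.79 on the log2 scale, while Asns, the asparagine synthetase, fell by 4.10 (edgeR adjusted p 0.0317, 0.0411, 0.0413 and 0.00618). The called genes therefore went in both directions, while 15 of the 19 were not called, and the list's median was 0.16.

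Of 21 insulin and lipogenic genes, the setting in which Angptl8 is usually studied, Elovl5 rose by 0.93 on the log2 scale and Txnip and Mlxipl fell by 0.97 and 0.75 (edgeR adjusted p 0.0397, 0.0460 and 0.0460). Of 27 other secreted liver proteins tested, 1 rose and 3 fell. Lcn2 (lipocalin 2) rose by 3.75 on the log2 scale, and among those that fell were Igfbp2 (a binding protein of insulin-like growth factors), by 1.72, and Enho (adropin), by 1.28 (edgeR adjusted p 0.0106, 0.00781 and 0.0441). Of the 16 p53 and mitochondrial stress genes linked to Gdf15, 1 rose, Cdkn1a by 1.61 on the log2 scale. Of the 20 transcription regulators tested, 2 rose: Pparg by 0.94 and Ppara by 1.13.

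**Figure D4:**
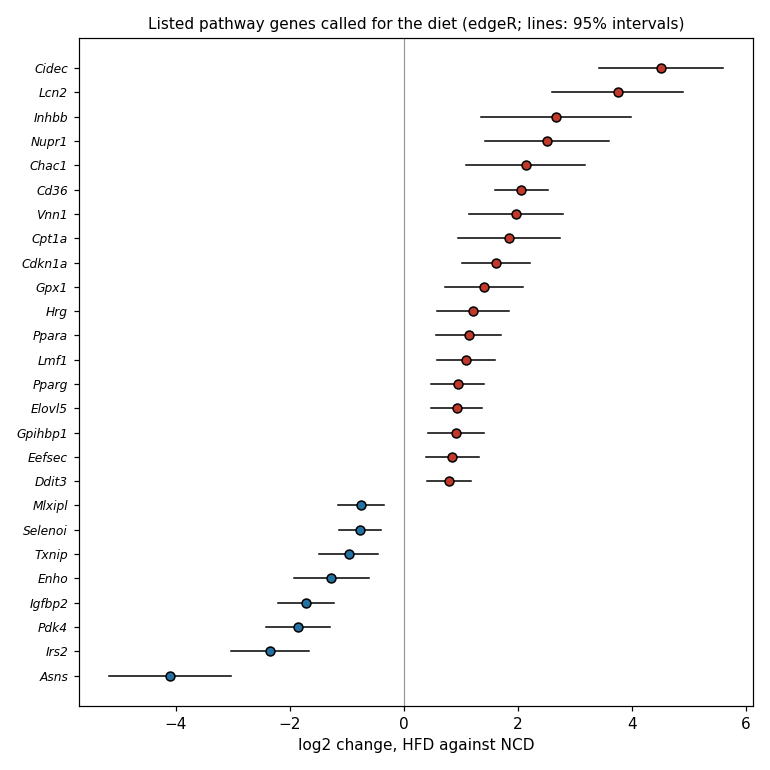
Log2 change between HFD and NCD (x axis) of 26 of the 28 listed pathway genes that edgeR called for the diet, ordered by size; points are estimates from 3 against 3 libraries and lines 95% intervals, red for higher and blue for lower in HFD. Cidec (4.50) and Asns (-4.10) lie at the ends.

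The second comparison asked what C1 did to these transcripts in HFD-fed mice. No member was called by edgeR (0 of 9), beside 7 of 13358 genes over the whole table (0.0524%), all lower, and 0 of 9 were called by DESeq2; 2 members had an unadjusted p under 0.05 (7.75% of all genes did). Both were higher in every HFD+C1 library than in any HFD library, where 6.36% of all genes tested were, and no member was lower in every library (5.99% of all genes). Fetub was at 255, 248.9 and 251 CPM in HFD and at 341, 349 and 290.1 CPM in HFD+C1 (log2 change 0.38, 95% interval 0.12 to 0.63, edgeR adjusted p 0.409). Fgf21 was at 9.88, 4.80 and 6.06 CPM in HFD+C1, above the 4.31 to 4.58 CPM of HFD, with replicate 1 far above the other libraries (log2 change 0.65, 95% interval 0.14 to 1.17, edgeR adjusted p 0.487). Without HFD+C1 replicate 1 its log2 change was 0.29.

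Angptl8 was at 128, 68.7 and 122 CPM in HFD+C1, overlapping the HFD libraries (log2 change -0.39, 95% interval -0.82 to 0.04, edgeR adjusted p 0.691). Without HFD+C1 replicate 2, its lowest library, the log2 change was -0.15, and over all fits with a library left out it ran from -0.55 to -0.15. Per 1000 CPM of hepatocyte markers it was at 0.584 to 1.11 in HFD+C1 and 1.26 to 1.42 in HFD, without overlap. The marker sums themselves were 109250 to 117617 CPM in HFD+C1 and 95546 to 113395 CPM in HFD. The share of all genes apart on that scale was not counted. Inhbe, at 91.4, 87.8 and 115 CPM, lay on either side of the HFD libraries, and Selenop, at 3203, 3692 and 3813 CPM, lay partly below and partly within their range. The 95% intervals of their log2 changes were -0.20 to 0.33 and -0.33 to 0.20. The log2 changes of Gdf15, Angptl4, Angptl6 and Ahsg were 0.21, 0.07, -0.06 and 0.20, all with overlapping groups. Kupffer cell markers, 8 of 8 detected, summed to 162 to 217 CPM in HFD and 269 to 346 CPM in HFD+C1, none of them called; their part in these values was not tested.

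For C2 the question was the same. Again 0 of 9 members were called by edgeR, beside 3 of 13503 genes (0.0222%), all lower, and 0 of 9 by DESeq2; 1 member had an unadjusted p under 0.05 (6.89% of all genes did). That member was Angptl8, at 91.7, 109 and 80.5 CPM in HFD+C2 and 137, 161 and 121 CPM in HFD. All HFD+C2 libraries lay below all HFD libraries, where 6.64% of the genes tested did, with a log2 change of -0.58 (SE 0.19, 95% interval -0.99 to -0.16, edgeR adjusted p 0.695). Without HFD+C2 replicate 1, the library that stood apart, its log2 change was -0.56 (edgeR adjusted p 0.308). Angptl4 was at 52.7, 46.5 and 67.1 CPM, above the HFD libraries, as for 7.01% of all genes, and not called either (log2 change 0.37, 95% interval -0.02 to 0.75, edgeR adjusted p 0.695).

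For Selenop, Ahsg and Fetub, HFD+C2 replicate 1 lay well below the other libraries of its group. The 9 members took 0.323% of gene reads in HFD+C2 replicate 1, against 0.735% and 0.772% in replicates 2 and 3 and 0.561% to 0.714% in HFD. Selenop was at 1979, 3937 and 4330.2 CPM, Ahsg at 1366, 3367 and 2672 CPM and Fetub at 165, 334 and 303 CPM. With all 3 libraries their log2 changes were -0.13, 0.12 and 0.08, and without replicate 1 they were 0.14, 0.42 and 0.33, with no call in either fit (edgeR adjusted p 0.744, 0.423 and 0.404 without it). Inhbe was at 61.3, 54.8 and 101 CPM, with replicates 1 and 2 below the HFD libraries (log2 change -0.38, 95% interval -0.89 to 0.14, edgeR adjusted p 0.699; -0.21 without replicate 2 and -0.69 without replicate 3). Fgf21 at 3.40, 2.15 and 6.57 CPM and Gdf15 at 4.20, 7.04 and 10.3 CPM overlapped HFD widely, as did Angptl6 at 7.60 to 9.93 CPM. Kupffer cell markers summed to 477, 275 and 212 CPM in replicates 1, 2 and 3, against 162 to 217 CPM in HFD, and their part in these values was not tested.

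C1 and C2 were given at the same dose for the same time, so the compounds were compared directly, as 1 pair. Of 13229 genes, edgeR called 0 (0%), with 608 at an unadjusted p under 0.05, and 0 of the 9 members, of which 0 reached that p (4.6% of all genes). The largest difference among the members was that of Fgf21, at 6.91 ± 2.64 CPM in HFD+C1 and 4.04 ± 2.28 CPM in HFD+C2 (SD, n = 3), with a log2 difference of -0.78 (95% interval -1.70 to 0.15, edgeR adjusted p 0.841). It was -0.42 without HFD+C1 replicate 1, -0.47 without HFD+C2 replicate 2 and -1.33 without HFD+C2 replicate 3. Inhbe differed by -0.43 (-0.98 to 0.11) and Angptl8 by -0.18 (-0.73 to 0.38), and the groups overlapped for every member, where 5.96% of all genes were higher and 6.09% lower in HFD+C2 without overlap. Per 1000 CPM of hepatocyte markers, Fetub was at 1.89 to 2.65 in HFD+C2 and 2.66 to 2.97 in HFD+C1, so on that scale the groups lay just apart. The marker sum was highest in HFD+C2 replicate 2, at 159353 CPM, and the share of all genes apart on that scale was not counted. The intervals of Ahsg (-0.79 to 0.67) and Selenop (-0.73 to 0.61) leave room for differences of more than 1.5-fold in either direction, and those of Fgf21, Inhbe and Angptl8 for a level in HFD+C2 lower by more than 1.5-fold, so the data do not show that the compounds act alike on hepatokine transcripts. The C1 and C2 comparisons share the HFD libraries, so the values of Angptl8 under C1 (-0.39) and C2 (-0.58) are not independent of each other.

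Around the hepatokines, 1 listed gene was called under a compound in the main edgeR fits, where DESeq2 called 6 under each compound. Gadd45g, a growth arrest gene of the p53 list, fell by 2.38 on the log2 scale under C1 and by 2.17 under C2 (edgeR adjusted p 0.000753 and 0.0494); a link of either fall to Gdf15 was not tested. In 1 fit of all 12 libraries it was called under neither compound, and under C2 the call was also lost with median-ratio scaling and in 4 of the 6 fits without a library (HFD replicate 1 or 3, HFD+C2 replicate 2 or 3). Some of the other listed genes with the smallest p in their lists are given as values, with no call for any of them in the main edgeR fits. Fgl1, another hepatokine, was at 210.1 ± 8.21 CPM in HFD, 403 ± 116 CPM in HFD+C1 and 451 ± 226 CPM in HFD+C2 (edgeR adjusted p 0.0984 and 0.695). Enho, which the diet lowered, was at 5.02 ± 1.12, 11.7 ± 3.62 and 8.89 ± 1.96 CPM in the same groups (edgeR adjusted p 0.111 and 0.695). Of the 20 stress response genes tested, edgeR called 0 under either compound, with 5 at an unadjusted p under 0.05 for C1 and 3 for C2, and DESeq2 called 1 under each. In HFD+C1, Chac1 was at 1.34 ± 0.388 CPM against 3.37 ± 0.698 CPM in HFD (log2 change -1.36, edgeR adjusted p 0.136), and in HFD+C2, Cebpb was at 16.2 ± 3.29 CPM against 33.8 ± 8.16 CPM (log2 change -1.07, edgeR adjusted p 0.625). Asns was at 0.544 ± 0.220, 1.52 ± 0.517 and 2.05 ± 1.35 CPM in HFD, HFD+C1 and HFD+C2 (edgeR adjusted p 0.303 and 0.695). The lipogenic genes Acacb and Fasn were at 23.2 ± 2.30 and 269 ± 63.0 CPM in HFD and at 9.89 ± 1.47 and 121 ± 20.6 CPM in HFD+C2 (edgeR adjusted p 0.135 and 0.606). Lpl, the target of ANGPTL4 and ANGPTL8, was at 7.89 ± 1.05 CPM in HFD, 10.7 ± 1.23 CPM in HFD+C1 and 14.3 ± 5.93 CPM in HFD+C2, without a call (edgeR adjusted p 0.462 and 0.695).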

How the data were processed

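Total liver RNA was sequenced. Per the submitters' processing notes, Trimmomatic 0.39, STAR 2.7 and DESeq2 were used with build mm10; the annotation, strand setting and filters are not given in the sources used here. The authors deposited 3 tables of 50559 genes. They are called normalized by name, but the deposited values are whole-number counts with unequal totals, and the HFD columns are the same in all 3 tables. The 4 rows that name no gene (27.3% to 58.2% of a library's reads) were left out of library sizes and tests.

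In each comparison of 6 libraries, genes averaging at least 10 counts were tested with edgeR 4.0.16 (R 4.3.3), TMM scaling, no block, library sizes summed over the tested genes and Benjamini-Hochberg adjustment. Standard errors were taken from the log2 change and the F statistic. Levels are CPM scaled by TMM over 12 libraries; the floor is 3 counts, which covers counting error only. Where nothing but the label separates replicates, p-values measure the spread between these libraries.

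The members and lists were chosen with earlier results of these data known. Named beside the members are, per list and comparison, up to 3 called genes per direction with the smallest adjusted p and non-overlapping groups, or, where none was called, up to 2 genes with the smallest p, plus receptors and family members by role, and the 2 genes nearest in pattern to each called member (mean of at least 50 counts); some genes that this rule names are not reported here. Alternatives were DESeq2 1.42.0, median-ratio scaling, no filter, the replicate number as a block, 1 fit of 12 libraries and leaving out each library. Library sizes from all genes, levels per hepatocyte marker, the promoter motif and the overlapping genes were added after the data were seen.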

Additional observations from a re-analysis of the deposited data

How the results depend on the processing

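For the diet, Inhbe, Angptl8 and Selenop were called in all 6 other settings that kept every library, with log2 changes of 2.03 to 2.20, 1.44 to 1.62 and 1.44 to 1.62. The members called were 6 with DESeq2, 6 with no filter and 5 with 1 fit of 12 libraries. The number was 0 to 5 when a library was left out. Fgf21 was called in 4 of the 6 settings and Angptl4 in 3. Only DESeq2 called Fetub, lower in HFD (log2 change -0.59, DESeq2 adjusted p 0.0249). Only the fit with no filter called Ahsg (log2 change 1.05, edgeR adjusted p 0.0152). Over all genes the diet calls were 3198 of 35374 with DESeq2 and 4493 of 35374 with no filter. They were 2418 of 13864 with 1 fit of 12 libraries and 23 to 1838 with a library left out. The main fit called 836 of 13864. Listed genes called were 65, 69, 50 and 2 to 59 instead of 28. The cause of these differences was not tested. A fit with a library left out also has fewer samples, and its calls went both ways. They were 1838 without NCD replicate 1 and 23 without HFD replicate 1.

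Under C1, DESeq2 called 65 genes (6 listed), no filter 206 (13 listed) and 1 fit of 12 libraries 0 (0 listed), and leaving out a library gave 2 to 102 (1 to 5 listed). Under C2 these were 36 (6 listed), 152 (11 listed) and 0 (0 listed), with 0 to 27 (0 to 6 listed) when a library was left out; median-ratio scaling called 0 listed genes. Between the compounds, no filter called 162 genes (5 listed) and leaving out a library 0 to 1. No member was called under a compound, or between them, in any of these fits.

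Signs turned for members that were never called when a library was left out. Under C1 the log2 change ran from -0.058 to 0.41 for Gdf15, -0.057 to 0.14 for Inhbe, -0.26 to 0.26 for Angptl4, -0.23 to 0.053 for Angptl6 and -0.13 to 0.0050 for Selenop. Under C2 it ran from -0.68 to 0.17 for Fgf21, -0.37 to 0.24 for Gdf15, -0.12 to 0.16 for Angptl6, -0.17 to 0.42 for Ahsg, -0.12 to 0.33 for Fetub and -0.34 to 0.14 for Selenop. Between the compounds it ran from -0.57 to 0.043 for Gdf15, -0.0043 to 0.23 for Angptl6, -0.36 to 0.22 for Ahsg and -0.26 to 0.21 for Selenop.

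With total-count scaling the HFD means were 90.9 CPM for Inhbe and 244.9 CPM for Fetub. Whether replicate numbers pair the samples cannot be settled with 3 libraries per group. Same-numbered deviations correlated at -0.04, 0.16 and -0.09 for the diet and 0.02, 0.15 and -0.10 for C1. They correlated at 0.01, 0.02 and -0.09 for C2 and at 0.01, -0.02 and 0.05 for C2 against C1. Some samples correlated best with their own number and others did not. With the replicate number as a block, 483 genes and 3 members were called for the diet (13 listed), 36 genes under C1 (4 listed) and 3 under C2, and no member under a compound. Depth limits Fgf21 most, with 1 read in NCD replicate 2.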
